A study of Mus musculus with 7 samples.

Results

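The genes described here are 36 genes of cholesterol and fatty acid synthesis, out of 28666 genes in the table of counts. They were chosen by gene symbol, with earlier results of these data known. They were divided by role into 18 sterol enzymes, 12 fatty acid genes and 6 genes here called SREBP regulators, after the sterol regulatory element binding proteins (SREBPs). The last group holds Srebf1 and Srebf2, which encode the SREBPs, with Scap, Insig1, Insig2 and the cholesterol carrier Stard4. All 36 symbols occurred once, and all 36 genes were among the 17461 genes that passed the filter on low counts. The lowest count of any of them in any library was 116.

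Bone marrow cells of female C57BL/6 mice aged 6 to 8 weeks were grown with GM-CSF and IL-4 for 7 days into bone marrow-derived dendritic cells (BMDCs). The BMDCs shared a Transwell, in which medium but not cells can mix, with the murine colon carcinoma line MC38, and mature and immature cells were then separated by flow sorting. The study's text gives 24 h of DON, a glutamine antagonist, and also names DMSO or DON at 5 µM, and the labels name no treatment for any library. RNA of 3 immature and 4 mature libraries was sequenced to compare the transcriptomes of the sorted populations. The surface markers of the sort are not given in the sources used here, and cultures with GM-CSF are known to hold macrophages beside dendritic cells. The study speaks in general of independent experiments, but the labels do not say whether these replicates came from separate mice or cultures, so that p values may measure only technical spread between these libraries.

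Cholesterol is built from acetyl-CoA through mevalonate, isoprenoid units, squalene and lanosterol, and a last series of enzymes turns lanosterol into cholesterol. Fatty acids are built from cytosolic acetyl-CoA and malonyl-CoA by fatty acid synthase, and elongases and desaturases then set chain length and the number of double bonds. The transcription factors SREBP-1 and SREBP-2 act on the genes of both routes. When sterols are scarce, SCAP escorts the SREBPs to the Golgi, where they are cut and released, and when sterols are plentiful the INSIG proteins hold them in the endoplasmic reticulum.

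Known regulatory letters near the start sites of these genes are shown because many of the genes are textbook SREBP targets. RefSeq promoter windows (GRCm38.p6, 250 bases before to 50 after a start site) were given for 29 of the 36 genes, and Fdps, Fdft1, Sqle, Stard4, Scd1, Scd2 and Fads1 had none. Exact letters were searched on both strands, namely TCACNCCAC for the sterol regulatory element, CACGTG for the E-box, CCAAT for the NF-Y box and GGGCGG for the Sp1 site. None of these motifs holds another, although neighbouring matches may overlap. The CCAAT letters lay in the windows of 24 of 29 genes (82.8%) against 41.1% of 27025 genes with a window, and among the sterol enzymes in 14 of 15. GGGCGG also lay in 24 of 29 (82.8%, against 38.2%), CACGTG in 6 of 29 (20.7%, against 8.09%) and TCACNCCAC in 1 of 29, Hmgcs1 (3.45%, against 1.44%). These are letter matches and not measured binding sites. The 27025 genes were not limited to expressed genes, whereas all 36 genes described passed the filter on low counts. A gene counted if any of its windows matched. The CCAAT matches of Dhcr7 and Me1 lay only in windows of later start sites, and that of Acly lay 37 bases after its start.

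The bases before the start site are printed 5′ to 3′ for 4 genes that differed between mature and immature cells and whose windows hold such letters, with matches of TCACNCCAC, CACGTG and CCAAT in capitals (ATTGG is CCAAT on the other strand). They stop before any annotated exon. The stretches of Dhcr7, Acly and Me1 held none of these letters, and other windows that reach into exons are not shown. Hmgcs1 (chr13:119690101-119690350, plus strand), Mvd (chr8:122443423-122443672, minus strand) and Insig1 (chr5:28071162-28071362, plus strand) were lower in mature cells, and Pmvk (chr3:89454291-89454540, plus strand) was higher.
Hmgcs1: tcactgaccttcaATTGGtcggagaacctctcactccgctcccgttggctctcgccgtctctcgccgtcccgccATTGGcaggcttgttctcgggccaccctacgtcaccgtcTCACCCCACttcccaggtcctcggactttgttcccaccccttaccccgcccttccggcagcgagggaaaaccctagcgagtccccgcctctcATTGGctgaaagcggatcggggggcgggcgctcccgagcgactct
Mvd: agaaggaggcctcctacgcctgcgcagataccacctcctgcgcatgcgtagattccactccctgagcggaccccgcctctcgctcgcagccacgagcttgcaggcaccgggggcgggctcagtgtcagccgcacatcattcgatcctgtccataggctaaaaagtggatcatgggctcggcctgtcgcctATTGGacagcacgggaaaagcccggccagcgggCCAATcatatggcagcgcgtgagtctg
Insig1: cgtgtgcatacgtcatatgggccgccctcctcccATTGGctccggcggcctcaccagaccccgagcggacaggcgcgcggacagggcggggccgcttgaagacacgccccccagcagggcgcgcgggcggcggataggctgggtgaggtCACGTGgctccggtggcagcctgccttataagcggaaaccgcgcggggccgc
Pmvk: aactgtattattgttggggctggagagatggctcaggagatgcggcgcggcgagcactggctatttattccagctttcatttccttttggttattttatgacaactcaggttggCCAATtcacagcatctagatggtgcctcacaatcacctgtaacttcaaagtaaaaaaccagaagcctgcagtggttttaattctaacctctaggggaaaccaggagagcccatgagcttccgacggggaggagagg

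Hmgcs1 held the TCACNCCAC letters 137 bases before the start and 3 CCAAT matches in the stretch printed. Mvd had 2 CCAAT matches, Insig1 had 1 and a CACGTG match 101 bases before the start, and Pmvk had 1 CCAAT match and no other motif. The CCAAT letters were therefore found beside genes of both directions.

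Total counts were 54846746 to 67973086 per library. The labelled cell type was checked against markers. Summed over 8 dendritic cell markers, FPKM was 707 to 762 in immature and 1890 to 2080 in mature libraries, with 5 of the 8 genes higher in mature cells. Ccr7, a chemokine receptor that rises as dendritic cells mature, made up most of this difference, at 89.8 FPKM in immature and 1180 FPKM in mature cells. Cd80 (log2 fold change 2.49) and Cd86 (3.37) were also among the 5 genes higher. In its other flow cytometry the study defines mature dendritic cells as positive for CD80 and CD86. The rise of these genes may therefore be set by the sort, and it is no independent check. H2-Ab1 did not pass the test (0.06, edgeR adjusted p = 0.819). Ptprc (log2 fold change -0.77, edgeR adjusted p = 0.000883) and Itgax (-0.41, edgeR adjusted p = 0.0124), the genes of CD45 and CD11c, were lower in mature cells. The 5 macrophage markers summed to 436 to 456 FPKM in immature and 101 to 113 FPKM in mature libraries, with all 5 lower. Libraries of the mature group also stood apart in genes of other tissues. The 8 cardiac muscle markers summed to 1.82 to 1.97 FPKM in immature libraries, to 12.3 in mature replicate 1 and to 262 to 281 in mature replicates 2 to 4. All 8 were higher in the mature group as a whole, but not each in every mature library. In mature replicate 1, Tnni3 made up 11.18 of the 12.3 FPKM, against 1.33 to 1.64 FPKM in immature libraries. There Myh6 (0.07 FPKM) lay under its immature range of 0.09 to 0.14, and Mb (0.18) within its range of 0.06 to 0.25. The 5 kidney markers summed to 193 FPKM in mature replicate 2 and to at most 0.1 in every other library. Adipocyte markers summed to at most 0.15 FPKM, with 4 of the 4 in the table under 0.1 in every library, hepatocyte markers to at most 1.41, granulocyte markers to at most 3.65 and mast cell markers to at most 0.54. Epithelial markers of MC38 cells summed to 17.2 to 21.3 FPKM in immature and 13.8 to 21.6 FPKM in mature libraries. Cdh1 was the largest part of these sums, at 9.93 to 11.07 and 9.76 to 11.56 FPKM. Epcam was higher in mature cells, at 0.07 to 0.16 and 0.31 to 0.72 FPKM (log2 fold change 2.24, edgeR adjusted p = 0.00436). Krt8, Krt18, Krt19 and Cdh1 did not pass the test. The part of these cells and tissues in the results that follow was not tested. Values from mature replicate 1 alone, the mature library with the lowest cardiac sum, are given beside many but not all of the results.

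The share of sterol enzymes lower in mature BMDCs was above that of all tested genes, and the share higher was near that of all tested genes or under it. Of the 18 sterol enzymes, 5 were lower and 3 higher by at least 1 on the log2 scale with an adjusted p under 0.05 (edgeR's quasi-likelihood test, Benjamini-Hochberg over 17461 genes). Across all tested genes 9.95% were lower and 13.2% higher by these criteria, against 27.8% and 16.7% of the sterol enzymes. The tested genes include genes of low counts. Among 9339 genes with at least 10 CPM in at least 3 libraries, 1010 were lower and 972 higher, and the sterol enzymes stayed at 5 and 3. By adjusted p alone 12 enzymes were lower, 3 higher and 3 neither, where 22.9% of all genes were lower and 23.2% higher. Counts scaled to library size by TMM (CPM) in the mature libraries lay wholly below those of the immature libraries for 13 enzymes and wholly above for 4, and 26.7% and 25.4% of all genes were so placed. The median log2 fold change of the 18 was -0.69, with a range of -1.46 to 1.51, beside a median of 0.055 over all genes. In bulk RNA, fewer cells that express a gene and less RNA per cell cannot be told apart.

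**Figure D1:**
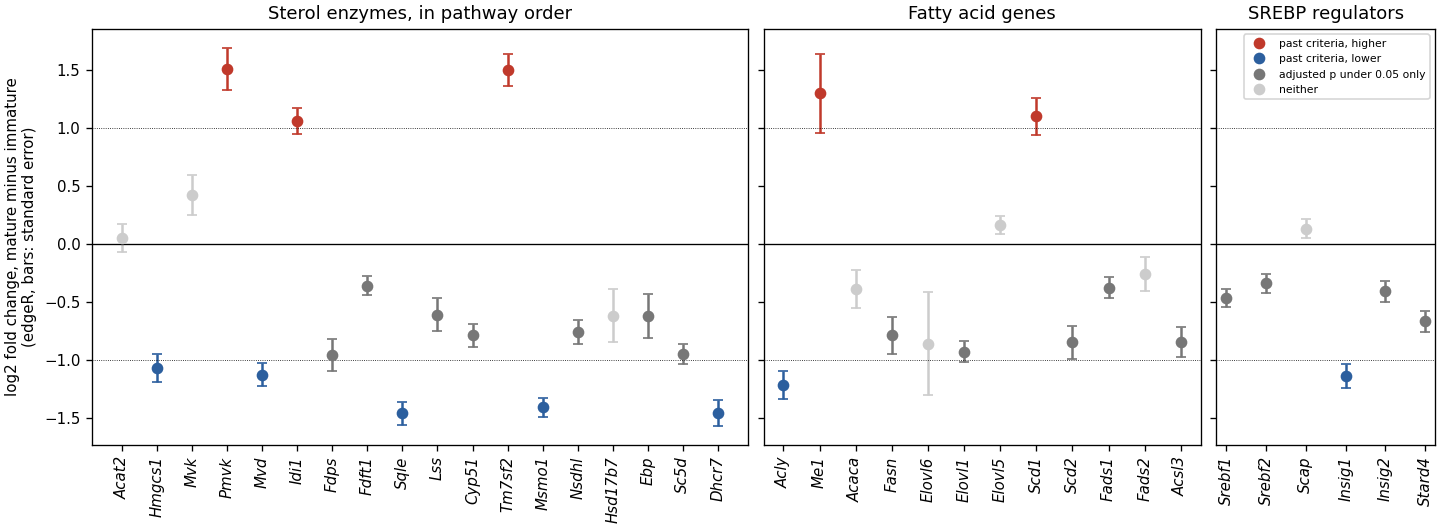
Fitted log2 fold changes of the 36 genes, mature minus immature (edgeR, 4 against 3 libraries, bars are standard errors), with the sterol enzymes in the order of the pathway and dotted lines at a change of 1. Pmvk, Idi1 and Tm7sf2 stand above 1 while Hmgcs1, Mvd, Sqle, Msmo1 and Dhcr7 stand below -1.

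The early mevalonate steps were split from gene to gene. Hmgcs1 (ENSMUSG00000093930, chromosome 13, 119690379 to 119708260), the HMG-CoA synthase that feeds the rate-limiting step of the pathway, was at 83.5, 82.3 and 81.5 CPM in immature replicates 1 to 3 and 44.2, 41.1, 30.8 and 40.7 CPM in mature replicates 1 to 4 (log2 fold change -1.07, SE 0.12, edgeR adjusted p = 0.000124). Every mature library lay under every immature one, and mature replicate 3 was the lowest. With mature replicate 1 alone the log2 fold change was -0.88, and without mature replicate 3 it was -0.95, both short of the fold criterion. Acat2, a cytosolic thiolase that condenses acetyl-CoA, overlapped between the groups at 17.4 to 20.8 and 18.1 to 23.5 CPM (log2 fold change 0.05, 95% interval -0.20 to 0.29). Mvk, mevalonate kinase, was at 14.6 to 15.7 CPM in immature cells and at 17.2 to 18.9 CPM in mature replicates 1, 2 and 4 and 27.8 CPM in mature replicate 3. Its libraries did not overlap, but it did not pass the test (log2 fold change 0.42, edgeR adjusted p = 0.0726).

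Pmvk, phosphomevalonate kinase, and Mvd, which makes isopentenyl diphosphate from the product of Pmvk, changed in opposite directions at consecutive steps. Pmvk (ENSMUSG00000027952, chromosome 3, 89454541 to 89469013) was at 15.4, 14.3 and 17.5 CPM in immature replicates 1 to 3 and 45.3, 38.3, 59.0 and 36.3 CPM in mature replicates 1 to 4 (log2 fold change 1.51, SE 0.18, edgeR adjusted p = 0.000174). Its mature libraries all exceeded the highest immature one, and mature replicate 3 was again the most distant. Mvd (ENSMUSG00000006517, chromosome 8, 122433601 to 122443422) was at 63.2, 64.6 and 72.2 CPM in immature replicates 1 to 3 and 29.2, 28.1, 34.9 and 30.1 CPM in mature replicates 1 to 4 (log2 fold change -1.13, SE 0.1, edgeR adjusted p = 2.98e-05). The mature values for Mvd were narrow and apart from the immature ones. Idi1 (ENSMUSG00000058258, chromosome 13, 8885501 to 8892451), the isomerase that makes the allylic isoprenoid unit, rose, at 39.6, 41.0 and 40.4 CPM in immature replicates 1 to 3 and 97.6, 82.9, 72.1 and 84.6 CPM in mature replicates 1 to 4 (log2 fold change 1.06, SE 0.11, edgeR adjusted p = 6.56e-05). Idi1 was highest in mature replicate 1, and without that library its log2 fold change was 0.99. With mature replicate 1 alone, Pmvk, Mvd and Idi1 gave 1.55, -1.17 and 1.30.

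The enzymes from farnesyl diphosphate to lanosterol, Fdps, Fdft1, Sqle and Lss, were all lower in mature cells by adjusted p. Sqle (ENSMUSG00000022351, chromosome 15, 59315077 to 59331192), squalene epoxidase and another rate-limiting enzyme of the route, fell furthest with Dhcr7 and was at 64.8, 63.7 and 60.3 CPM in immature replicates 1 to 3 and 24.5, 19.9, 24.8 and 22.4 CPM in mature replicates 1 to 4 (log2 fold change -1.46, SE 0.099, edgeR adjusted p = 5.84e-06). Its highest mature library was far under its lowest immature one. Fdps, farnesyl diphosphate synthase, was at 43.5 to 45.1 CPM in immature and 17.3 to 25.9 CPM in mature libraries (log2 fold change -0.96, edgeR adjusted p = 0.000501, and -1.03, past the criteria, without mature replicate 1). Lss, which closes the sterol rings, was at 27.5 to 33.5 and 15.9 to 22.4 CPM (log2 fold change -0.61, edgeR adjusted p = 0.00609, and 0.0514 with mature replicate 1 alone). Fdft1, squalene synthase, was at 32.0, 33.0 and 33.1 CPM in immature replicates 1 to 3 and 26.1, 23.9, 27.1 and 24.8 CPM in mature replicates 1 to 4 (log2 fold change -0.36, SE 0.083, edgeR adjusted p = 0.0072). This was the smallest decrease among the sterol enzymes that passed the test, although its groups did not overlap. Fdft1 overlaps Ctsb, a cathepsin gene on the other strand with a mean of 156000 counts per library against 1730 for Fdft1, over 774 bases, and Ctsb itself had a log2 fold change of -1.96. The strand setting of the counting is not given in the sources used here, so that reads of the shared bases may have been counted for either gene.

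Beyond lanosterol most enzymes fell and 1 rose. Msmo1 (ENSMUSG00000031604, chromosome 8, 64718139 to 64733792), which removes the C4 methyl groups, was at 58.0, 61.1 and 60.3 CPM in immature replicates 1 to 3 and 21.7, 22.1, 24.4 and 21.5 CPM in mature replicates 1 to 4 (log2 fold change -1.41, SE 0.082, edgeR adjusted p = 2.42e-06). Dhcr7 (ENSMUSG00000058454, chromosome 7, 143823145 to 143848410), the reductase of the last step, was at 42.3, 34.9 and 38.4 CPM in immature replicates 1 to 3 and 15.2, 13.1, 12.6 and 15.0 CPM in mature replicates 1 to 4 (log2 fold change -1.46, SE 0.11, edgeR adjusted p = 1.08e-05). For both genes the mature libraries spanned a few CPM and lay far under the immature ones. Tm7sf2 (ENSMUSG00000024799, chromosome 19, 6062821 to 6067850), a sterol C14 reductase, rose from a low level, at 5.42, 5.64 and 6.2 CPM in immature replicates 1 to 3 and 15.4, 15.4, 19.9 and 14.6 CPM in mature replicates 1 to 4 (log2 fold change 1.5, SE 0.14, edgeR adjusted p = 4.6e-05). Mature replicate 3 was the highest, and the other mature libraries were close together. Tm7sf2 shares 9 bases with Vps51 on the same strand. With mature replicate 1 alone the values for Sqle, Msmo1, Dhcr7 and Tm7sf2 were -1.34, -1.44, -1.31 and 1.45, and that for Fdps was -0.74.

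The remaining enzymes of this stretch passed the test without reaching the fold criterion, apart from Hsd17b7. Cyp51, the lanosterol C14 demethylase, was at 40.5 to 46.4 and 23.7 to 29.0 CPM (log2 fold change -0.79), Nsdhl, which acts with Msmo1, at 24.8 to 29.1 and 15.1 to 17.6 CPM (-0.76), and Sc5d, the C5 desaturase, at 53.3 to 57.2 and 25.8 to 30.0 CPM (-0.95). Cyp51 shares 166 bases with Akap9 on the other strand, whose log2 fold change was 0.86. With mature replicate 1 alone the log2 fold change of Cyp51 was -0.58. In Ebp, the sterol isomerase, mature replicate 3 (41.8 CPM) was next to the lowest immature library (43.0 CPM) while the other mature libraries were at 22.8 to 26.6 CPM. The log2 fold change of Ebp was -0.62 (edgeR adjusted p = 0.0271), a call lost without immature replicate 1, 2 or 3 or mature replicate 1, 2 or 4 (adjusted p = 0.0547 to 0.0841), that is on leaving out any library but mature replicate 3. Hsd17b7, a keto reductase, was at 10.5 to 11.3 and 4.61 to 9.72 CPM and missed the threshold (log2 fold change -0.62, edgeR adjusted p = 0.0587) although its groups did not overlap.

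**Figure D2:**
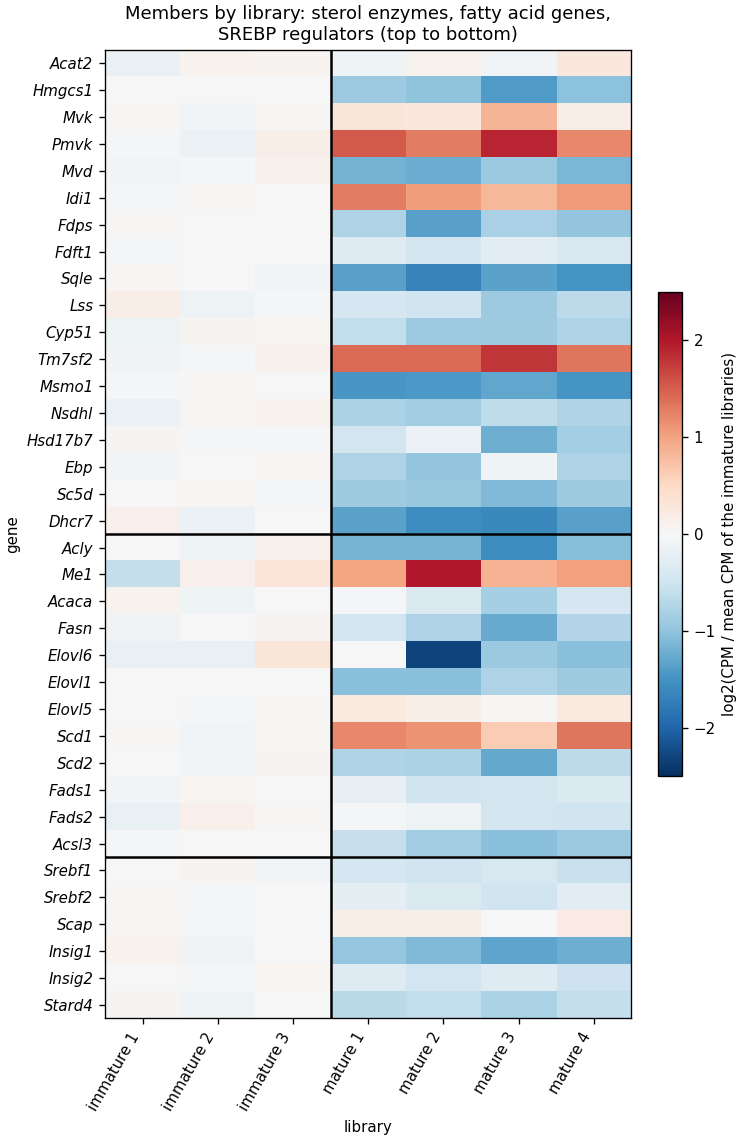
Each cell gives, on a log2 scale, the CPM of a gene (rows, in the order sterol enzymes, fatty acid genes, SREBP regulators) in a library (columns) over the mean of the 3 immature libraries. Blue rows dominate the mature columns, and Pmvk, Idi1, Tm7sf2, Me1 and Scd1, the genes higher by the criteria, are red in all 4 mature libraries. Mvk and Elovl5 also lie above the immature mean in all 4, mostly by less.

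On the FPKM scale, which corrects for gene length and so allows genes to be ranked, the sterol enzymes changed order. Mvd had the highest mean of the 18 in immature cells (31.5 FPKM ± 1.60 SD, n = 3) and was at 15.5 ± 0.756 FPKM (n = 4) in mature cells. Pmvk ranked 11 of the 18 in immature cells, at 8.06 ± 0.627 FPKM, and 1 in mature cells, at 24.5 ± 4.49 FPKM, and Idi1 went from 10.1 ± 0.320 FPKM to 22.8 ± 3.57 FPKM and rank 2. The mature ranges of Pmvk (20.23 to 30.41) and Idi1 (18.17 to 26.85) overlapped. Idi1 was above Pmvk in mature replicates 1, 2 and 4 and under it in mature replicate 3, so that their order was not resolved. Tm7sf2 was last of the 18 in immature cells (1.13 ± 0.0551 FPKM) and rank 14 in mature cells (3.48 ± 0.349 FPKM).

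The summed level of the sterol enzymes hid these opposite movements. It was 167.5 ± 2.35 FPKM in immature and 141.1 ± 6.03 FPKM in mature libraries, a ratio of 0.843. Pmvk, Idi1 and Tm7sf2, the 3 genes higher by the criteria, summed to 19.3 ± 0.417 and 50.87 ± 4.12 FPKM. The others summed to 148.3 ± 2.43 and 90.28 ± 2.28 FPKM, a ratio of 0.609. These others include Mvk and Acat2, whose log2 fold changes were 0.42 and 0.05. The sums were split by calls made in these same data and are given as a description.

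**Figure D3:**
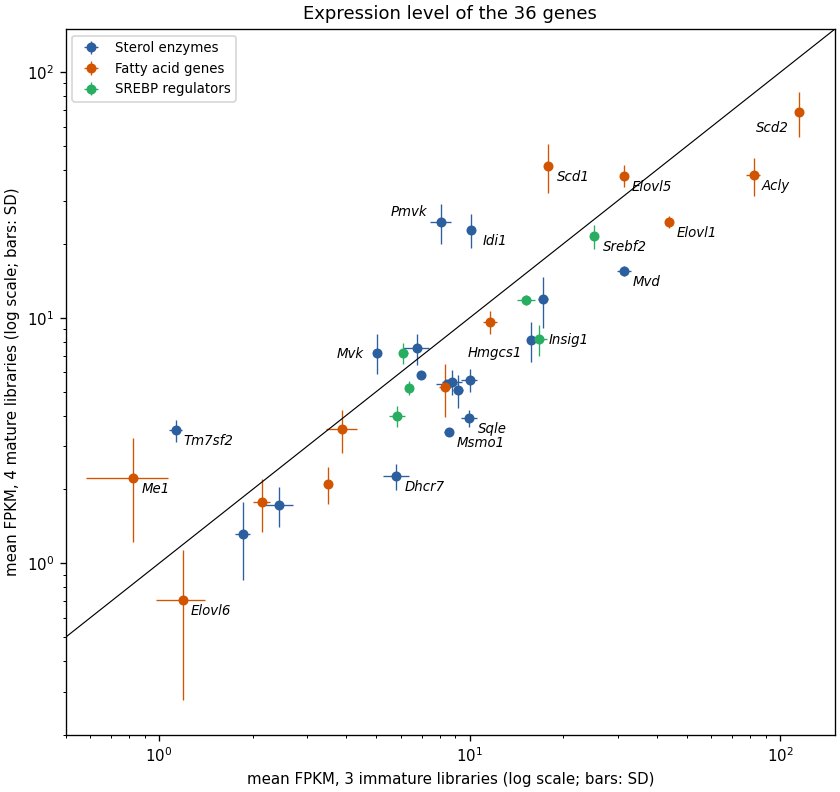
Mean FPKM of each of the 36 genes in the 4 mature libraries against the 3 immature libraries, both axes on a log scale, with SD bars and the line of equal levels. Most genes lie under the line, and Pmvk, Idi1, Tm7sf2, Scd1 and Me1 lie well above it.

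Of the 12 fatty acid genes 3 passed the criteria, with Acly lower and Scd1 and Me1 higher in mature cells. By adjusted p alone 6 were lower (50.0%, against 22.9% of all genes), 2 higher (16.7%, against 23.2%) and 4 neither. The libraries of the groups were apart for 6 in the lower and 2 in the higher direction, where 26.7% and 25.4% of all genes were so placed. The shares past the criteria, 8.33% lower and 16.7% higher, were near the 9.95% and 13.2% of all genes. The median log2 fold change was -0.59, with a range of -1.22 to 1.30. With mature replicate 1 alone the median was -0.11, the Scd1, Me1 and Acly changes were 1.23, 1.01 and -1.14, and Elovl1 also passed the criteria at -1.01.

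Among the enzymes that supply and build the chain, Acly (ENSMUSG00000020917, chromosome 11, 100476353 to 100528000), which splits citrate into cytosolic acetyl-CoA for both sterols and fatty acids, was at 491, 458 and 530 CPM in immature replicates 1 to 3 and 220, 219, 169 and 237 CPM in mature replicates 1 to 4 (log2 fold change -1.22, SE 0.12, edgeR adjusted p = 5.34e-05). All mature libraries were under all immature ones, with mature replicate 3 the lowest. Me1 (ENSMUSG00000032418, chromosome 9, 86581371 to 86695953), the cytosolic malic enzyme that makes NADPH, rose from a low level, at 2.4, 3.97 and 4.54 CPM in immature replicates 1 to 3 and 7.2, 14.6, 6.64 and 7.45 CPM in mature replicates 1 to 4 (log2 fold change 1.30, SE 0.34, edgeR adjusted p = 0.013). Mature replicate 2, the library with kidney transcripts, had the highest value by far, and without that library the log2 fold change of Me1 was 0.97, under the fold criterion. Without immature replicate 1, the lowest immature library, the log2 fold change of Me1 was 1.07 with an edgeR adjusted p of 0.0516. Fasn, fatty acid synthase, was at 97.5, 104 and 109 CPM in immature replicates 1 to 3 and 73.8, 60.3, 43.3 and 62.0 CPM in mature replicates 1 to 4 (log2 fold change -0.79, SE 0.16, edgeR adjusted p = 0.00351), so that its groups were apart. Acaca, the acetyl-CoA carboxylase that makes malonyl-CoA, was at 44.3, 38.6 and 41.9 CPM in immature replicates 1 to 3 and 40.1, 32.2, 23.3 and 31.1 CPM in mature replicates 1 to 4. Mature replicate 1 lay within the immature range of Acaca, and the gene did not pass the test (log2 fold change -0.39, SE 0.16, edgeR adjusted p = 0.0814, 95% interval -0.71 to -0.07 without adjustment). With mature replicate 1 alone the log2 fold changes of Fasn and Acaca were -0.46 and -0.03.

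The 2 stearoyl-CoA desaturases, which put the double bond into saturated acyl chains and lie in the same gene cluster on chromosome 19, changed in opposite directions. Scd1 (ENSMUSG00000037071, chromosome 19, 44394455 to 44407709) was at 102, 95.4 and 102 CPM in immature replicates 1 to 3 and 230, 218, 155 and 251 CPM in mature replicates 1 to 4 (log2 fold change 1.10, SE 0.16, edgeR adjusted p = 0.000479). Scd2 (ENSMUSG00000025203, chromosome 19, 44293674 to 44306864) was at 716, 680 and 745 CPM in immature replicates 1 to 3 and 422, 414, 295 and 451 CPM in mature replicates 1 to 4 (log2 fold change -0.85, SE 0.14, edgeR adjusted p = 0.00108), which is past the threshold on adjusted p and short of the fold criterion. For Scd1 every mature library was above, and for Scd2 every mature library below, the immature ones, and mature replicate 3 was the lowest mature library for both. Scd1 took 13.3% to 13.7% of the summed Scd1 and Scd2 FPKM in immature cells and 36.9% to 38.4% in mature cells, a difference of 24.1 percentage points in means of 13.5% ± 0.195 and 37.6% ± 0.691 SD. Since the groups were already apart for both genes, the exact two-sided permutation test over 35 labelings could return only its smallest value, p = 0.0571, which cannot pass the threshold. The share varied little between mature libraries, mature replicate 3 included. In the counts themselves the difference in share was 22.8 points. The desaturases are close paralogs, and how reads matching both were counted is not given in the sources used here.

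**Figure D4:**
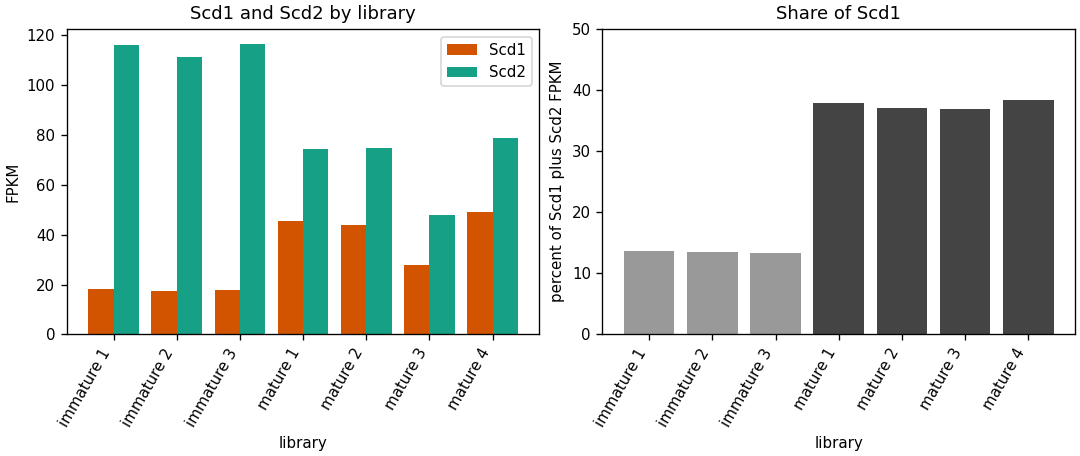
Scd1 and Scd2 levels (FPKM, left) and the share of Scd1 in their sum (percent, right) in each library. The share is 13.3% to 13.7% in the 3 immature and 36.9% to 38.4% in the 4 mature libraries.

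None of the elongases and polyunsaturated fatty acid desaturases passed the criteria in edgeR or DESeq2 on all libraries. Elovl1, which extends saturated very long chains, was at 134 to 136 CPM in immature and 65.4 to 79.5 CPM in mature libraries (log2 fold change -0.93, edgeR adjusted p = 4.21e-05). It shares 53 bases with Cdc20 on the other strand, itself at a log2 fold change of -1.82. Elovl5, an elongase of polyunsaturated chains, overlapped at 122 to 129 and 128 to 149 CPM (log2 fold change 0.16, 95% interval 0.01 to 0.32, edgeR adjusted p = 0.124). Elovl6, which extends palmitate, was low and spread, at 7.69 to 10.8 CPM in immature and 1.75 to 8.70 CPM in mature libraries, and did not pass (log2 fold change -0.86, edgeR adjusted p = 0.142). Mature replicate 1 was the highest mature library of Elovl6, and without it the log2 fold change was -1.31 (edgeR adjusted p = 0.0168).

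Fads1, the delta-5 desaturase, was at 61.1 to 66.3 and 45.2 to 54.9 CPM (log2 fold change -0.38, edgeR adjusted p = 0.0086, but 0.0606 with library totals alone and 0.115 with mature replicate 1 alone), whereas its neighbour Fads2, the delta-6 desaturase, overlapped at 12.9 to 16 and 10.3 to 14.4 CPM (log2 fold change -0.26, 95% interval -0.56 to 0.04). Acsl3, which activates fatty acids with coenzyme A, was at 17.1 to 17.6 and 8.42 to 11.7 CPM (log2 fold change -0.85, edgeR adjusted p = 0.000758). It overlaps Utp14b on the same strand over 13475 bases, a gene with a mean of 260 counts per library against 792 for Acsl3 and itself at a log2 fold change of -1.19 (edgeR adjusted p = 0.00237).

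Scd2 had the highest mean FPKM of the 36 genes in both groups, at 115 ± 2.86 FPKM in immature and 68.9 ± 14.2 FPKM in mature cells. In immature cells Acly (82.0 ± 4.18) and Elovl1 (43.7 ± 1.27) followed with ranges that did not touch their neighbours, while the next pair, Mvd and Elovl5, overlapped at 30.10 to 33.23 and 31.12 to 31.66 FPKM. In mature cells Scd1 moved from rank 7 to rank 2 (17.9 ± 0.475 to 41.6 ± 9.34 FPKM), ahead of Acly (38.0 ± 6.58) and Elovl5 (37.9 ± 3.90), but the ranges of these 3 genes overlapped. Scd1 was the highest of the 3 in mature replicates 1, 2 and 4 and the lowest in mature replicate 3. Me1 was the lowest of the 36 in immature cells (0.827 ± 0.244 FPKM), and Elovl6 the lowest in mature cells (0.708 ± 0.430 FPKM). The 12 fatty acid genes summed to 315.0 to 325.6 FPKM in immature libraries, to 248.6 to 260.7 FPKM in mature replicates 1, 2 and 4 and to 181.7 FPKM in mature replicate 3. The ratio of the means was 0.735, or 0.792 without mature replicate 3.

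Of the 6 SREBP regulators, Insig1 passed the criteria, in the lower direction (16.7%, against 9.95% of all genes), and none passed in the higher direction with edgeR or DESeq2, or at an unadjusted p under 0.05. By adjusted p alone 5 were lower (83.3%, against 22.9% of all genes) and Scap was neither, and the mature libraries of those 5 lay wholly below the immature ones (against 26.7% of all genes). The median log2 fold change was -0.44.

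Srebf1, which encodes SREBP-1, was at 97.6, 102 and 93.4 CPM in immature replicates 1 to 3 and 72.7, 68.8, 74.1 and 66.2 CPM in mature replicates 1 to 4 (log2 fold change -0.47, SE 0.076, edgeR adjusted p = 0.00107). Srebf2, which encodes SREBP-2, was at 209, 202 and 207 CPM in immature replicates 1 to 3 and 173, 160, 146 and 172 CPM in mature replicates 1 to 4 (log2 fold change -0.34, SE 0.082, edgeR adjusted p = 0.00886). The call for Srebf2 was lost with library totals alone (edgeR adjusted p = 0.0882) and with limma on log2(FPKM + 0.1) and log2(FPKM + 1) (adjusted p = 0.0762 and 0.0741). Both changes were short of the fold criterion, and these are transcript levels that do not measure the cleaved, active proteins. Srebf1 shares 109 bases with Rai1 on the other strand. Scap was at 53.3, 50.8 and 51.5 CPM in immature replicates 1 to 3 and 57.5, 57.7, 51.6 and 59.4 CPM in mature replicates 1 to 4, with overlapping groups, and did not pass the test (log2 fold change 0.13, SE 0.08, edgeR adjusted p = 0.232, 95% interval -0.03 to 0.28).

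Insig1 (ENSMUSG00000045294, chromosome 5, 28071363 to 28078662), which retains SCAP in the endoplasmic reticulum and is itself an SREBP target, was at 62.6, 55.5 and 58.3 CPM in immature replicates 1 to 3 and 30.2, 27.3, 23.5 and 25.4 CPM in mature replicates 1 to 4 (log2 fold change -1.14, SE 0.1, edgeR adjusted p = 3.27e-05). With mature replicate 1 alone the log2 fold change was -0.94. Insig2, its paralog, was at 25.2, 24.4 and 26.2 CPM in immature replicates 1 to 3 and 20.3, 18.2, 20.1 and 17.6 CPM in mature replicates 1 to 4 (log2 fold change -0.41, SE 0.092, edgeR adjusted p = 0.00666, and 0.0708 with mature replicate 1 alone), a smaller decrease with groups that were apart. Stard4, a carrier of cholesterol between membranes, was at 39.3, 34.7 and 37.7 CPM in immature replicates 1 to 3 and 23.3, 24.4, 21.6 and 24.6 CPM in mature replicates 1 to 4 (log2 fold change -0.67, SE 0.09, edgeR adjusted p = 0.000361). The regulators summed to 75.47 ± 2.48 FPKM in immature and 57.81 ± 4.88 FPKM in mature libraries, a ratio of 0.766.

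Over all 36 genes, 7 were lower and 5 higher by the criteria (19.4% and 13.9%, against 9.95% and 13.2% of all genes), and 23 were lower and 5 higher by adjusted p alone, as were 22.9% and 23.2% of all genes. The mature libraries lay wholly below the immature ones for 24 genes and wholly above for 6, with 6 overlapping, and 26.7% and 25.4% of all genes were so placed. The median log2 fold change was -0.62, and 27 values were negative. The mature libraries were not alike over these genes. Mature replicate 3 had the lowest value of the 4 for 18 of the 36 genes and the highest for 11, while mature replicate 1 had the highest for 15 and the lowest for 1. These counts were not taken over all genes, so they cannot be called particular to the 36. Mature replicate 3 also had the lowest total count (54846746). Its TMM factor was 0.9644, against 1.034 to 1.072 in the other mature libraries.

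Genes around these routes were read from lists of their own, against the 9.95% of all genes lower and 13.2% higher by the criteria and the 22.9% and 23.2% by adjusted p alone. Sterol esterification, transport and oxysterol synthesis had 14 of 16 genes tested, of which 5 were lower by the criteria and none higher, and 9 lower and 3 higher by adjusted p alone, with a median log2 fold change of -0.89. Lipa, the lysosomal acid lipase that frees cholesterol from its esters, was at 657 to 759 CPM in immature and 116 to 158 CPM in mature libraries (log2 fold change -2.30, edgeR adjusted p = 1.47e-06), and Soat1, which makes cholesteryl esters, at 470 to 481 and 102 to 112 CPM (-2.17, edgeR adjusted p = 2.54e-07). Ch25h, the cholesterol 25-hydroxylase, was at 3.94 to 6.10 and 0.47 to 1.46 CPM (-2.29), and Soat2 at 12.1 to 12.9 and 3.05 to 3.97 CPM (-1.87). Lipa and Soat1 are abundant in macrophages, whose marker sum was also lower in mature cells, and the part of that in these values was not tested.

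Other genes of fatty acid synthesis and activation had 22 of 26 tested, with 4 lower and 2 higher by the criteria and a median log2 fold change of -0.11. Hacd4, a dehydratase of the elongation cycle, was at 131 to 141 and 11.6 to 14.9 CPM (log2 fold change -3.36, edgeR adjusted p = 2.39e-07), and Hacd1, its paralog, at 1.75 to 2.84 and 0.349 to 0.892 CPM (-2.05, edgeR adjusted p = 0.00232). Acacb, the mitochondrial acetyl-CoA carboxylase, was at 1.19 to 1.29 CPM in immature libraries, 2.17 CPM in mature replicate 1 and 7.27 to 7.81 CPM in the remaining mature libraries (log2 fold change 2.34, edgeR adjusted p = 0.00224). Thrsp, a gene of lipogenic tissues, was at 0 counts in all immature libraries and mature replicate 1 and at 17, 15 and 13 counts in mature replicates 2 to 4, and no fold is given. The high libraries of both genes were those with the higher cardiac sums, whose part in the values was not tested.

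The isoprenoid branch had 9 of 9 genes tested, with none lower and 1 higher by the criteria, and 5 lower and 1 higher by adjusted p alone (median -0.27). The gene higher was Idi2, a paralog of Idi1, at 0 to 0.0681 CPM in immature and 0.284 to 1.12 CPM in mature libraries. SREBP processing had 10 of 10 tested, with none past the criteria in either direction and 4 lower and 1 higher by adjusted p alone (median -0.24). Triglyceride and phospholipid assembly had 11 of 11 tested, with 4 lower and none higher by the criteria (median -0.22). Plin2, which coats lipid droplets, was at 599 to 632 and 184 to 281 CPM (log2 fold change -1.46, edgeR adjusted p = 4.09e-05), and Mgll, monoacylglycerol lipase, at 288 to 313 and 108 to 127 CPM (-1.37, edgeR adjusted p = 3.47e-06).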

How the data were processed

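RNA-seq of flow-sorted immature (3 libraries) and mature (4 libraries) BMDCs was analysed, with groups and replicate numbers taken from the labels. The table the authors deposited holds raw counts as whole numbers for every gene and library. It also holds FPKM, in which the authors divided fragments by gene length and by library size. The submitters' processing notes name cutadapt 1.9, HISAT2 2.2.1, StringTie 2.1.6, DESeq2 and edgeR without their roles. The notes name the build mm9, whereas 25805 of the 28588 gene IDs also in GENCODE M21 (90.3%) have the same position there on GRCm38, and 31 of the 36 genes described do. Positions printed are those of the deposited table. The kit marks strand (dUTP), but the counting setting is not given in the sources used here. The table gives 53 symbols to more than 1 gene ID.

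The counts were fitted in R 4.3.3 with edgeR 4.0.16 (filterByExpr, TMM, quasi-likelihood test, all 7 libraries, Benjamini-Hochberg over all tested genes). As in the study, a gene had to change by 1 or more on the log2 scale in either direction, with an adjusted p under 0.05. CPM were computed with TMM factors. FPKM were used to describe levels of different genes, and also in the Scd1 share and its permutation test, in Dixon's ratio for summed levels and in limma. That permutation test used scipy 1.17.1. The fits were tested on simulated data with known changes in few genes and the same spread set for every gene. That setting is simpler than these data, so the test does not measure the error rate here. Total counts were 54846746 to 67973086, and the precision they give covers counting error only.

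The genes, lists, motifs and alternatives were chosen with earlier results of these data known. Values in every library are given for genes past the criteria, the SREBP regulators, Hmgcs1, Sqle, Fdft1, Dhcr7, Fasn, Acaca, Acly, Scd1 and Scd2, and others by their range. Of each further list, up to 4 genes past the criteria with the largest change could be named. Replicate numbers are shared by the groups, but the deviations of same-numbered libraries from their group means correlated at only 0.036, -0.0113 and 0.017, so the main fit has no block. Alternatives were DESeq2 1.42.0, edgeR with library totals alone, other filters, limma 3.58.1 on log2(FPKM + 1) and log2(FPKM + 0.1), a replicate block, the omission of each library and mature replicate 1 alone. Promoter windows are RefSeq's on GRCm38.p6. Figures were drawn with matplotlib 3.10.9.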

Additional observations from a re-analysis of the deposited data

Results flagged for a closer look

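In groups of 4 libraries, the highest or lowest value was compared with its nearest neighbour by Dixon's ratio (gap over range, 95% critical value), for 44 values in the mature group, of which 4 passed. Chance gives about 1 in 20. Mature replicate 3 stood apart for the CPM of Mvk (ratio 0.8387, 27.8 against 17.2 to 18.9 CPM in the other mature libraries) and of Tm7sf2 (0.8485, 19.9 against 14.6 to 15.4 CPM), high in both. Mature replicate 3 was also apart, and low, for the summed FPKM of the fatty acid genes (0.8468, 181.7 against 248.6 to 260.7 FPKM). Mature replicate 2 stood apart for the CPM of Me1 (0.8974, 14.6 against 6.64 to 7.45 CPM). The immature group, with 3 libraries, was not examined in this way.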

How the results depend on the processing

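Over all alternatives, 516 values for single genes kept their direction and their side of the criteria, 13 lost a call, 3 gained one and 6 changed sign. With library totals alone the median log2 fold change of all genes was 0.159, against 0.055, and the medians of the sterol enzymes and the fatty acid genes were -0.59 and -0.48. Without a filter the median of all genes was 0.171. Directions that turned were all of genes that did not pass the test, Acat2 (-0.09 with mature replicate 1 alone, -0.03 under the replicate block, and -0.04 to 0.11 when 1 library was left out, negative without immature replicate 1 or mature replicate 4), Elovl6 (0.02) and Fads2 (0.01), the last pair with mature replicate 1 alone. That fit has 1 mature library, which is assumed to vary like the immature ones. By adjusted p alone, Mvk passed with DESeq2 (0.0372), library totals alone (0.0185) and limma (0.0146 and 0.016), Hsd17b7 with DESeq2 (0.0405), and Elovl5 with library totals alone (0.045) and limma (0.0389 and 0.038). Without mature replicate 1 Acaca (0.0183), and without mature replicate 3 Scap (0.01), also passed. The cause of these changes was not tested.

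The count of all genes past the criteria, 4037, was 1982 with at least 10 CPM in 3 libraries, 2561 with limma on log2(FPKM + 0.1), 1768 with limma on log2(FPKM + 1) and 8053 without a fold criterion, and 3646 to 4052 when 1 library was left out. Sterol enzymes lower numbered 3 with limma on log2(FPKM + 1), 12 without a fold criterion and 4 to 6 without 1 library (Hmgcs1 lost without mature replicate 3, Fdps gained without mature replicate 1), and those higher 2 to 3 without 1 library (Idi1 lost without mature replicate 1). Fatty acid genes higher numbered 1 with the 10 CPM filter, with limma on log2(FPKM + 1) and under the replicate block, and 1 to 2 without 1 library (1 without immature replicate 1 or mature replicate 2, where Me1 was lost). Fatty acid genes lower numbered 2 with mature replicate 1 alone, 6 without a fold criterion and 1 to 2 without 1 library (2 without mature replicate 1, where Elovl6 was added). Regulators lower numbered 0 with limma on log2(FPKM + 1) and with mature replicate 1 alone, and 5 without a fold criterion. Hmgcs1 also missed the fold criterion with library totals alone (-0.96) and with limma (-0.97 and -0.90), and Mvd (-0.98) and Insig1 (-0.96) did with limma on log2(FPKM + 1). The fatty acid median was -0.32 with limma on log2(FPKM + 1), -0.11 with mature replicate 1 alone and -0.70 to -0.48 without 1 library, and the sterol median -0.75 to -0.66. The Scd1 difference in share was 22.8 points in raw counts and 23.8 to 24.3 without 1 library.

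With the replicate number as a block, 3616 genes passed and Scd1 fell short of the fold criterion (0.99, edgeR adjusted p = 0.00361). The block changed no other call by the criteria among the 36 genes, and by adjusted p alone it lost Fdft1 (0.0629), Fads1 (0.0556) and Insig2 (0.0537). The depth was enough for every one of the 36 genes to have at least 10 counts in each library, and the number of libraries limits the precision.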
